A study of Mus musculus with 5 samples.

Results

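Ly6m and 5 relatives of the Ly6 family, Ly6a, Ly6e, Ly6c1, Ly6c2 and Ly6d, were followed in the small intestine of mice with and without a Cre transgene. All mice carried floxed alleles of the M4 muscarinic receptor gene. The 6 genes were taken by symbol from 19198 genes counted, and all 6 were found. Ly6m was chosen by its CPM values (counts per 1e6 counts of a library) in these same libraries, which differed between the 2 groups, so its difference is a description here and not a tested finding. The other 5 genes were taken as members of the family, with earlier results of the same data known.

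Ly6 proteins are small, cysteine-rich surface proteins that share the LU (Ly6/uPAR) domain, and most are tethered to the outer membrane by a GPI (glycosylphosphatidylinositol) lipid anchor. Many are known as antibody markers of cell types: Ly6a (Sca-1) marks blood stem cells, Ly6c marks monocytes and some endothelium, and Ly6d marks early B lineage cells and squamous epithelium. Ly6a and Ly6e are also known as genes that interferon induces in mouse cells. Most mouse Ly6 genes lie side by side in a block of chromosome 15.

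The Cre-positive group held 2 mice carrying the Math1Cre*PR transgene and mAChR4 fl/fl alleles, and the Cre-negative group held 3 mAChR4 fl/fl littermates without the transgene. Every mouse of both groups was gavaged with RU486, the progesterone receptor ligand that activates Cre*PR, at 10 mg/kg each day for 4 days. Math1 is expressed in the secretory lineage of the gut epithelium, so Cre was directed to a part of the cells sampled. The part of the gene that is floxed is not given, and no mouse had Cre without the floxed alleles, so effects of Cre and of the receptor cannot be told apart. RNA was taken from small intestine, depleted of ribosomal RNA and sequenced, 1 library per mouse, with 4681119 to 6618204 estimated counts per library.

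The libraries differed in ways that bear on the Ly6 genes. The enterocyte marker genes Sis and Anpep, which encode brush border enzymes, were abundant in all 5 libraries, at no less than 1900 and 2930 CPM after scaling by TMM factors. Slc10a2, the bile acid transporter of the distal gut, stood at 810 and 45.9 CPM in Cre-positive mice 1 and 2, against 218, 376 and 6.52 CPM in Cre-negative mice 1, 2 and 3. Lct, the lactase gene of the upper gut, stood at 3.48 and 632 CPM in Cre-positive mice 1 and 2, against 259, 15.8 and 881 CPM in Cre-negative mice 1, 2 and 3. Cre-positive 1 and Cre-negative 2 were thus the libraries with the most Slc10a2 and the least Lct, Slc10a2 being picked after its values were seen. Of 9 proximal genes in the table, 7 were lowest in those 2 libraries. Of 11 distal genes, 3 were highest in Cre-positive 1 and next highest in Cre-negative 2, and 2 were lowest in both. The sum of the distal genes was 3210 and 2930 CPM in Cre-positive mice 1 and 2, against 3210, 2110 and 1620 CPM in Cre-negative mice 1, 2 and 3, an order unlike that of Slc10a2. Cubn, the highest of these genes by mean, made up a large part of that sum. It stood at 883 and 1590 CPM in Cre-positive mice 1 and 2, against 2020, 554 and 659 CPM in Cre-negative mice 1, 2 and 3. The summed level of 19 B and plasma cell genes was 1380 and 382 CPM in Cre-positive mice 1 and 2, against 234 to 420 CPM in Cre-negative mice, so Cre-positive 1 stood apart. The stretch of intestine sampled is not stated in the labels.

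With edgeR's quasi-likelihood test and a Benjamini-Hochberg adjusted p threshold of 0.05, 0 of 4 members that passed the low-count filter were called, where 0 of 14352 genes (0%) were called in all. The unadjusted p lay under 0.05 for 485 genes (3.38%), 230 of them higher and 255 lower. DESeq2 called 12 higher and 7 lower genes (0.132%), with Ly6m among the higher ones (log2 fold change 1.24, DESeq2 adjusted p = 0.00606), and limma-voom called 0. Ly6m was chosen on this contrast, so its DESeq2 call is no independent evidence. Ly6c2 and Ly6d did not pass the filter, a minimum count reached in 2 or more libraries. Levels of the 2 groups did not overlap for 1 member on the higher side, Ly6m, where 7.89% of all genes tested were apart in that direction. They were apart for 1 member on the lower side, Ly6c1, where 10.2% of all genes tested were apart in that direction.

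Ly6m had the highest level per kilobase of transcript of the 6 genes in both Cre-positive libraries, and its level in both Cre-positive mice lay above that in all 3 Cre-negative mice. It stood at 217 and 245 CPM in Cre-positive mice 1 and 2, against 88.2, 103 and 109 CPM in Cre-negative mice 1, 2 and 3. The groups did not overlap. Slc10a2, Lct and B cell genes differed widely between the 2 Cre-positive libraries. The part of gut position and of B cells in the Ly6m values was not tested. On the log2 scale the Cre-positive mean lay above the Cre-negative one by 1.21 ± 0.20 (SE). It stayed between 1.15 and 1.32 when any of the 5 mice was left out, the lowest without Cre-negative 1 and the highest without Cre-positive 1. Ly6m was chosen on this contrast, so that range is a description. Ly6m ranked at 887 among 19198 genes by mean CPM. The log2 fold changes of goblet cell genes were positive and those of smooth muscle genes negative, and edgeR called none of them. The sum of 9 goblet cell genes was 5080 and 2280 CPM in Cre-positive mice 1 and 2, against 574, 995 and 1360 CPM in Cre-negative mice 1, 2 and 3. All 7 goblet genes tested had a positive log2 fold change, with a median of 2.50, and 6 of 7 had one without Cre-positive 1, with a median of 1.51. The sum of 10 smooth muscle genes was 1310 and 1580 CPM in Cre-positive mice 1 and 2, against 4050, 2040 and 1570 CPM in Cre-negative mice 1, 2 and 3, and all 10 had a negative log2 fold change, with a median of -0.83. The smooth muscle sums of the groups overlapped, and Cre-negative 1 lay far above the other libraries. The part of goblet cell and smooth muscle genes in the Ly6m values was not tested. The Ly6m gene lies on chromosome 15 at 74878336 to 74881704 in RefSeq (GRCm38.p6), and no exon of another gene overlaps it in GENCODE M21 (GRCm38), which lists it under its older name 2010109I03Rik. Its deposited counts were 1122.99 and 1574 in Cre-positive mice 1 and 2 and 368, 554.999 and 666 in Cre-negative mice 1, 2 and 3. They lay at most 0.01 of a read from a whole number, so almost no reads had been divided between Ly6m and other genes.

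**Figure D1:**
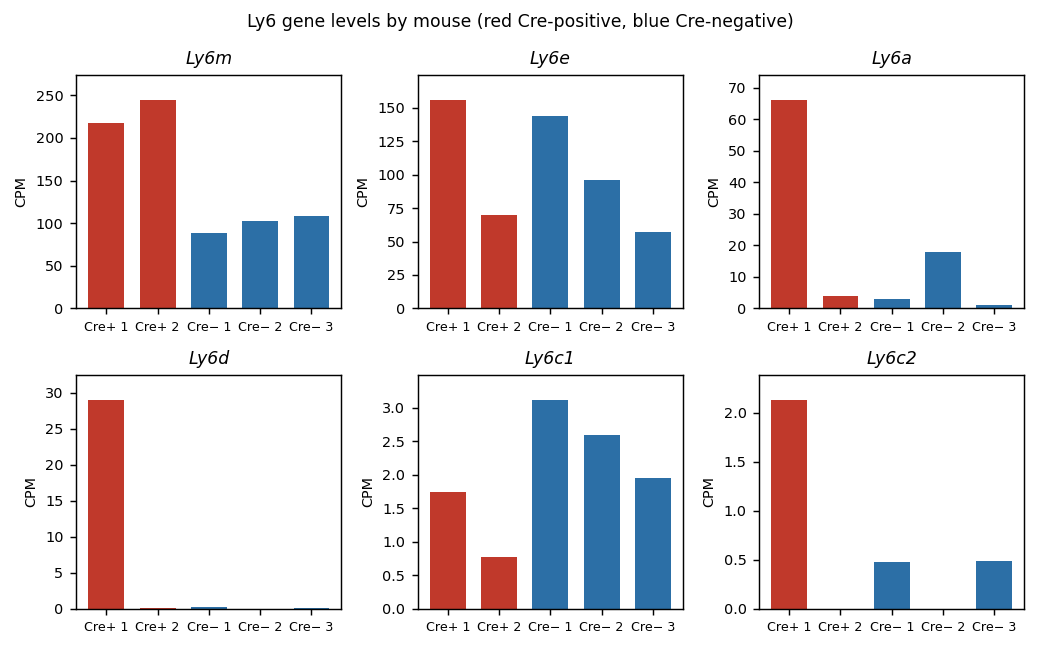
Level of each Ly6 gene in CPM (vertical axes, linear from 0, a separate scale for each gene) in each of 5 mice, 1 bar per library, red for Cre-positive and blue for Cre-negative. Both Cre-positive bars of Ly6m, at 217 and 245 CPM, stand above the Cre-negative bars, while Ly6a and Ly6d are high in Cre-positive 1 and low in Cre-positive 2.

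Ly6e, the interferon-inducible member that also serves as the receptor of the placental fusion protein syncytin-A in mice, overlapped between the groups, with a difference smaller than its standard error. It stood at 156 and 70.1 CPM in Cre-positive mice 1 and 2, against 144, 96.2 and 57.2 CPM in Cre-negative mice 1, 2 and 3. The highest and the second lowest of the 5 values were both Cre-positive. The log2 fold change was 0.19 ± 0.46 (SE; edgeR adjusted p = 0.977), and it was -0.46 without Cre-positive 1, -0.04 without Cre-negative 3 and 0.70 without Cre-positive 2. Per kilobase of transcript, Ly6m had 115 and 130 CPM in Cre-positive mice 1 and 2, above the 68.2 and 30.7 CPM of Ly6e in the same libraries. In Cre-negative mice the levels per kilobase were 53 ± 5.57 CPM for Ly6m and 43.5 ± 19.1 CPM for Ly6e (SD, n = 3), and Ly6e was the higher of the pair in Cre-negative 1, so their order there was within the spread. Ly6m made up 46% and 76.6% of the summed CPM of the 6 members in Cre-positive mice 1 and 2, against 36.8%, 46.9% and 64.1% in Cre-negative mice 1, 2 and 3.

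Ly6a rested on 1 mouse of each group. It stood at 66.2 and 3.89 CPM in Cre-positive mice 1 and 2, against 3.12, 17.8 and 0.978 CPM in Cre-negative mice 1, 2 and 3. The higher value of each group was thus many times the others of the same group, and the groups overlapped. The log2 fold change was 2.25 ± 1.38 (SE; edgeR adjusted p = 0.977). Without Cre-positive 1 it was -0.89, without Cre-positive 2 it was 3.20 and without Cre-negative 2 it was 4.15. The libraries with the most Ly6a, Cre-positive 1 and Cre-negative 2, were those with the most Slc10a2 and the least Lct. By the sum of distal genes, of which Cubn made up a large part, Cre-positive 1 shared the top value with Cre-negative 1 (3210 CPM each). Cre-negative 2, at 2110 CPM, lay above Cre-negative 3 alone (1620 CPM). The part of gut position in the Ly6a values was not tested. The gene with the pattern nearest to Ly6a over the 5 libraries was Slc40a1, the iron exporter ferroportin and a gene of the proximal list that was highest in the 2 libraries lowest in Lct, with a root mean square difference of 0.319 in centred log2 CPM. Slc40a1 stood at 234 and 25.2 CPM in Cre-positive mice 1 and 2, against 19.4, 96.7 and 8.63 CPM in Cre-negative mice 1, 2 and 3. The next nearest were Pik3ap1, a signalling adaptor of B cells and other leukocytes, at 0.372, and Tspan1, a tetraspanin gene, at 0.676.

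Ly6a lies in a block of related genes, of which a minority put the libraries in its order. RefSeq places 45 genes in the 883 kb between Psca and Gpihbp1, and 11 of them are rows of the table used. In GENCODE M21 (GRCm38) Ly6d spans 74762056 to 74763620 of chromosome 15, Ly6e 74955051 to 74959905 and Ly6a 74994877 to 74998031. Ly6c1 spans 75044018 to 75048830 and Ly6c2 75108158 to 75111970. Ly6e is on the plus strand and the other members are on the minus strand, and no exon of another gene overlaps any of them. Gml, an LU domain gene, stood at 13.4 and 0.466 CPM in Cre-positive mice 1 and 2, against 0.958, 5.19 and 0.326 CPM in Cre-negative mice 1, 2 and 3. Gml2, its neighbour, stood at 3.48 and 0 CPM in Cre-positive mice 1 and 2, against 1.20, 2.41 and 0 CPM in Cre-negative mice 1, 2 and 3. Cyp11b1, the gene of an adrenal steroid hydroxylase, stood at 2.52 and 0 CPM in Cre-positive mice 1 and 2, against 0, 0.927 and 0.163 CPM in Cre-negative mice 1, 2 and 3. Cre-positive 1 had the highest and Cre-negative 2 the next highest level of each of these genes, as for Ly6a. With Ly6a itself included, that makes 4 of the 11 block genes. In RefSeq the span of Gml overlaps that of Gml2, and Cyp11b1 lies within the span of Gml2. These genes are therefore not separate places in the block, and whether they shared reads was not tested. The share of all genes in that order was not counted. The other 7, Lynx1, Ly6d, Ly6m, Ly6e, Ly6c1, Ly6c2 and Ly6g2, did not follow that order. The counts of Gml2 and Cyp11b1 were low: Gml2 had 18 and 0 reads in Cre-positive mice 1 and 2, and 5, 13 and 0 in Cre-negative mice 1, 2 and 3.

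Ly6d was found almost entirely in 1 library. It had 150 reads, or 29.0 CPM (exact Poisson 95% interval 24.6 to 34.1), in Cre-positive 1 and 1 read, or 0.155 CPM (0.00394 to 0.866), in Cre-positive 2. It had 1, 0 and 1 reads in Cre-negative mice 1, 2 and 3, and the absence of reads in Cre-negative 2 allows a level of up to 0.556 CPM (3 counts). These intervals and limits cover counting error only. Cre-positive 2 therefore resembled the Cre-negative mice, and no fold change between the groups is given. In a fit without the filter the adjusted p of Ly6d was 0.982 (edgeR).

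B cell genes were high in the same library as Ly6d. Igkc, the constant part of the kappa antibody chain, had 252 and 7.31 CPM in Cre-positive mice 1 and 2, against 6.47, 6.12 and 15.2 CPM in Cre-negative mice 1, 2 and 3. Xbp1, a secretory cell transcription factor that epithelium also expresses, had 300.0 and 268 CPM in Cre-positive mice 1 and 2, against 143, 316 and 233 CPM in Cre-negative mice 1, 2 and 3. Igkc was thus set apart by Cre-positive 1, and Xbp1 was not. Cd79a, a chain of the B cell receptor complex, had 9.29 CPM in the first Cre-positive library and 0 CPM in all other libraries. Ms4a1, the gene of the B cell surface protein CD20, had 42.8 and 1.40 CPM in Cre-positive mice 1 and 2, against 0.479, 2.41 and 0.815 CPM in Cre-negative mice 1, 2 and 3. The 11 B and plasma cell genes that passed the filter all had a positive log2 fold change, with a median of 3.11, and 7 of 11 had one without Cre-positive 1, with a median of 0.18. The filter can be passed through the Cre-positive libraries alone, so that share is no support for a difference. Of the 10 squamous epithelial markers listed, Sprr1a and Krt14 were in the table. Sprr1a had 19.5 and 3.89 CPM in Cre-positive mice 1 and 2, against 16.1, 6.67 and 7.01 CPM in Cre-negative mice 1, 2 and 3, and Krt14 had 3.48 and 4.20 CPM in Cre-positive mice 1 and 2, against 17.0, 6.49 and 3.42 CPM in Cre-negative mice 1, 2 and 3. Hoxb9, a gene of the distal list, had 24 and 0.155 CPM in Cre-positive mice 1 and 2. In Cre-negative mice 1, 2 and 3 it had 0.479, 1.11 and 0.489 CPM. The sum of distal genes, of which Cubn made up a large part, was 3210 CPM in both Cre-positive 1 and Cre-negative 1. The part of B cells, squamous cells and gut position in the Ly6d value was not tested. In whole tissue more cells of a type and more RNA per cell cannot be told apart.

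**Figure D2:**
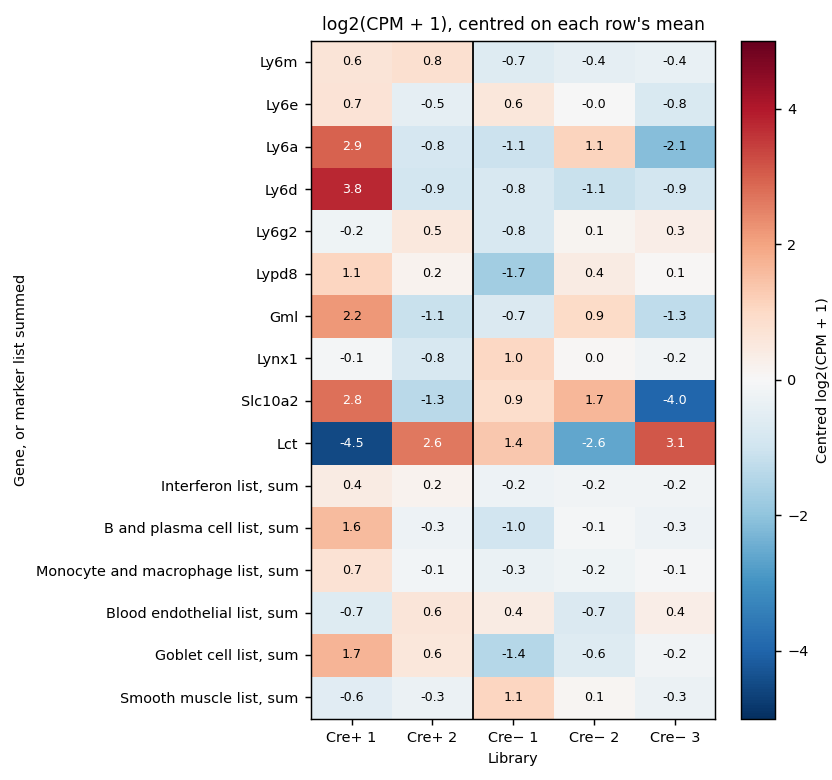
Centred log2(CPM + 1), written in each cell and coloured from blue (below the mean of the row) to red (above it), for 10 genes and the summed level of 6 marker lists (rows) in 5 libraries (columns, Cre-positive left of the line). Ly6m is above its mean in both Cre-positive libraries, at 0.63 and 0.81, while Ly6a, Ly6d and Gml are highest in Cre-positive 1, as are Slc10a2 and the B and plasma cell sum.

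Ly6c1 and Ly6c2 have nearly the same coding sequence, while most stretches of 50 bases in their transcripts differ. The pair shared 379 distinct stretches, of 1764 for Ly6c1 and 2733 for Ly6c2. Their coding sequences (393 bases each in GENCODE M21, GRCm38) were identical at 97.7% of positions, with 9 differences and an unbroken identical run of 188 bases from coding base 66 to 253. Both genes lie on the minus strand of chromosome 15. The first 260 coding bases are printed for each gene because they show how few positions within this stretch could separate a read of the pair. They span chr15:75045538-75048511 for Ly6c1 and chr15:75108679-75111667 for Ly6c2, introns left out, and capitals mark the 7 bases in this stretch that differ between the genes.
Ly6c1: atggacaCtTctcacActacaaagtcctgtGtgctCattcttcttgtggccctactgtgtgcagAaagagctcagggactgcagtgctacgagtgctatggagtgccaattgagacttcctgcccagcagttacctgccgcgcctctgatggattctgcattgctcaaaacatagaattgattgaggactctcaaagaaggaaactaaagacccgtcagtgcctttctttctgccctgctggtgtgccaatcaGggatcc
Ly6c2: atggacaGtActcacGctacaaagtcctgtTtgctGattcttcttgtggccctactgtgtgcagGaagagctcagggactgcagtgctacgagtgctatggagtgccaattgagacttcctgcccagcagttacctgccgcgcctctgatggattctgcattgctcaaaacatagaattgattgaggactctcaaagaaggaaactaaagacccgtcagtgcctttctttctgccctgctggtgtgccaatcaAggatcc

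The deposited counts of the Ly6c pair showed reads divided between genes in 1 library. Cre-positive 1 had 9.19 estimated counts for Ly6c1 and 10.8 for Ly6c2, which add up to 20. Cre-positive 2 had 5 and 0, against 13 and 2, 14 and 0, and 12 and 3 counts for Ly6c1 and Ly6c2 in Cre-negative mice 1, 2 and 3, all whole numbers. Whole counts alone do not show that the reads of the pair could be told apart in those libraries. Taken alone, Ly6c1 stood at 1.74 and 0.777 CPM in Cre-positive mice 1 and 2, against 3.12, 2.59 and 1.96 CPM in Cre-negative mice 1, 2 and 3. Those groups did not overlap, and the log2 fold change was -1.02 ± 0.59 (SE; edgeR adjusted p = 0.977). With both genes added, the level was 3.87 and 0.777 CPM in Cre-positive mice 1 and 2, against 3.59, 2.59 and 2.44 CPM in Cre-negative mice 1, 2 and 3. The Cre-positive mice then held both the highest and the lowest of the 5 values, and the log2 fold change was -0.33. The 95% interval of Ly6c1 by counting alone ran from 0.796 to 3.31 CPM in Cre-positive 1 and from 1.01 to 3.42 CPM in Cre-negative 3, so these neighbours were not separable at this depth.

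**Figure D3:**
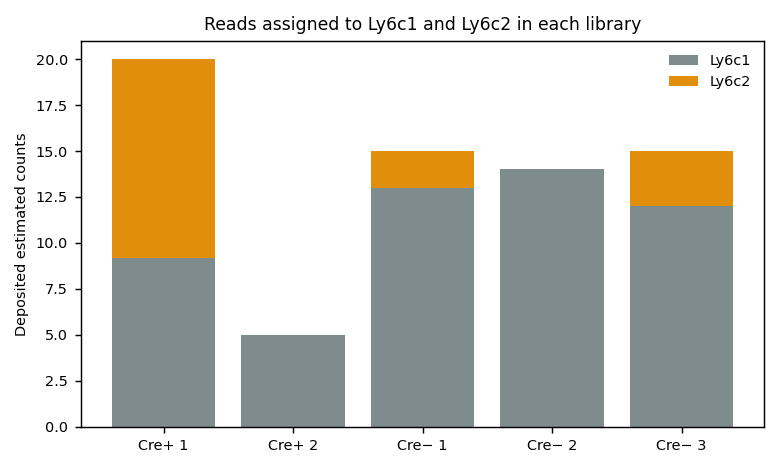
Deposited estimated counts (vertical axis, linear from 0) of Ly6c1 (grey) with Ly6c2 stacked on top (orange) in each of 5 libraries, Cre-positive on the left. The orange part is largest in Cre-positive 1, at 10.8 of 20 counts, and 0 in Cre-positive 2 and Cre-negative 2.

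The share of sequence held in common with other genes differed between the members. Of the distinct stretches of 50 bases in the annotated transcripts of Ly6c1, 32.8% occurred in a transcript of another gene, and Ly6c2 was the gene that shared the most with it. The share was 19% for Ly6a, mostly with Ly6c1, 14.4% for Ly6c2 and 5.16% for Ly6m, and it was 0% for Ly6e and Ly6d. The coding sequence of Ly6m was 65% to 70% identical to that of the other 5 members, with no identical run longer than 12 bases. Ly6a and Ly6c1 were 83.7% identical, with a run of 48 bases, and the deposited counts of Ly6a were whole in every library. No read length was found in the labels.

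Most markers of the cells known to carry Ly6C were scarce or did not follow the group. The summed level of 16 blood endothelial genes was 111 and 271 CPM in Cre-positive mice 1 and 2, against 232, 106 and 224 CPM in Cre-negative mice 1, 2 and 3. Aqp1, a water channel that other gut cells also express, had the highest mean, at 51.7 and 238 CPM in Cre-positive mice 1 and 2, against 134, 50.4 and 194 CPM in Cre-negative mice 1, 2 and 3. Cd34, also found on fibroblasts, followed at 17.2 and 14.3 CPM in Cre-positive mice 1 and 2, against 55.1, 15.6 and 9.94 CPM in Cre-negative mice 1, 2 and 3. Next by mean came Ptprb, at 5.54 to 11.6 CPM, and Egfl7, at 3.42 to 8.89 CPM. Egfl7 was the 1 of 10 genes of the list tested whose groups were apart, on the lower side. Of all genes tested, 10.2% were apart in that direction. Cdh5 and Kdr, which define endothelium, were at no more than 2.32 and 0.978 CPM in any library. The summed level of 20 monocyte and macrophage genes was 1680 and 922 CPM in Cre-positive mice 1 and 2, against 806, 855 and 965 CPM in Cre-negative mice 1, 2 and 3. Plac8 and Fn1 had the highest mean of that list, and both are also made by other cells. Plac8 made up a large part of the sum, at 1170 and 712 CPM in Cre-positive mice 1 and 2, against 341, 595 and 758 CPM in Cre-negative mice 1, 2 and 3. Fn1 stood at 214 and 68.2 CPM in Cre-positive mice 1 and 2, against 229, 108 and 65.8 CPM in Cre-negative mice 1, 2 and 3. Ccr2, the chemokine receptor that defines inflammatory monocytes, stood at 7.93 and 2.49 CPM in Cre-positive mice 1 and 2, against 4.07, 5.93 and 2.61 CPM in Cre-negative mice 1, 2 and 3. Of 18 genes of that list tested, 15 had a positive log2 fold change, with a median of 0.26, and without Cre-positive 1 it was 2 of 18, with a median of -0.77.

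The LU domain family as a whole showed no common direction. Of 55 family genes listed, 18 were in the table, the 6 members included, and 11 passed the filter, 4 of them members. Of these 11, 7 had a positive and 4 a negative log2 fold change, with a median of 0.24, where 45.5% of all genes tested were positive and their median was -0.04. Without Cre-positive 1, 3 of 13 family genes tested were positive. None was called by edgeR. Lypd8, which coats flagellated bacteria in the colon of mice, had the most reads of the family, at 1340 and 719 CPM in Cre-positive mice 1 and 2, against 193, 853 and 670 CPM in Cre-negative mice 1, 2 and 3 (log2 fold change 0.84 ± 0.59, SE; edgeR adjusted p = 0.977). Ly6g2 stood at 25.7 and 43.8 CPM in Cre-positive mice 1 and 2, against 17.0, 33.4 and 37.8 CPM in Cre-negative mice 1, 2 and 3. Cre-negative 1 was the lowest library for both genes, as for Ly6m, but for neither did the groups separate. Lynx1, whose protein binds nicotinic acetylcholine receptors and dampens them, stood at 5.81 and 3.11 CPM in Cre-positive mice 1 and 2, against 13.9, 6.49 and 5.38 CPM in Cre-negative mice 1, 2 and 3 (log2 fold change -0.94 ± 0.54, SE; edgeR adjusted p = 0.977). Plaur, the urokinase receptor gene, stood at 3.68 and 0.777 CPM in Cre-positive mice 1 and 2, against 3.35, 3.34 and 0.652 CPM in Cre-negative mice 1, 2 and 3. Lypd1 had log2 fold change -0.68 ± 0.51 with counts that were not whole in all 5 libraries. Cd59a, which shields cells from complement, together with Lypd6, Lypd6b, Spaca4 and Pate2, averaged no more than 2.21 CPM in either group.

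Genes that build and attach the GPI anchor, on which most Ly6 proteins depend, stayed close to even between the groups. Of 28 in the table, 27 were tested, and 10 had a positive and 17 a negative log2 fold change, with a median of -0.05. Their summed level was 619 and 639 CPM in Cre-positive mice 1 and 2, against 650, 631 and 670 CPM in Cre-negative mice 1, 2 and 3. Pgap1, which trims the lipid of the finished anchor, had the highest mean, at 85.5 and 70.9 CPM in Cre-positive mice 1 and 2, against 146, 106 and 95.6 CPM in Cre-negative mice 1, 2 and 3 (log2 fold change -0.57 ± 0.25, SE). Pigm, the first mannosyltransferase of the pathway, stood at 91.9 and 86.4 CPM in Cre-positive mice 1 and 2, against 90.6, 69.9 and 72.3 CPM in Cre-negative mice 1, 2 and 3. No gene of the pathway was called by edgeR, and without Cre-positive 1 the count of positive values was 17 of 27.

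The summed level of interferon response genes lay higher in both Cre-positive libraries than in all Cre-negative ones, as Ly6m did. The sum over 44 genes was 1860 and 1580 CPM in Cre-positive mice 1 and 2, against 1190, 1250 and 1260 CPM in Cre-negative mice 1, 2 and 3. Of 43 tested, 33 had a positive log2 fold change, with a median of 0.41, and without Cre-positive 1 it was 27 of 43, with a median of 0.26. The groups were apart on the higher side for 10 of the 43, where it was 7.89% of all genes tested, and on the lower side for 0, and edgeR called none. Gbp2, a guanylate-binding protein gene, had the highest mean of the list, at 98.9 and 76.0 CPM in Cre-positive mice 1 and 2, against 197, 86.7 and 53.8 CPM in Cre-negative mice 1, 2 and 3. The interferon list was drawn up with earlier results of the same data known, and its part in the Ly6m values was not tested.

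The genes with a pattern nearest to that of Ly6m, among 7697 candidates (mean log2 CPM 3 or more), included an interferon-inducible gene at the top. Likeness was the root mean square difference of log2 CPM, centred on the mean of each gene, over 5 libraries. Ifi47, an interferon-inducible GTPase gene, was nearest at 0.112, and it stood at 65.2 and 67.5 CPM in Cre-positive mice 1 and 2, against 23.0, 31.5 and 35.4 CPM in Cre-negative mice 1, 2 and 3. Clca4a, an enterocyte gene of the Clca family, followed at 0.215, with 1320 and 1200 CPM in Cre-positive mice 1 and 2, against 501, 421 and 646 CPM in Cre-negative mice 1, 2 and 3, and with reads divided with other genes in all 5 libraries. Zbtb9 and Lxn came next at 0.249 each, then Selenos, a selenoprotein of the endoplasmic reticulum, at 0.265 and Timm8b, a chaperone of mitochondrial protein import, at 0.272. All 6 were higher in both Cre-positive mice than in every Cre-negative mouse, which follows from being chosen for likeness to Ly6m. With library totals alone in place of TMM factors, the 6 nearest held all of these except Timm8b.

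**Figure D4:**
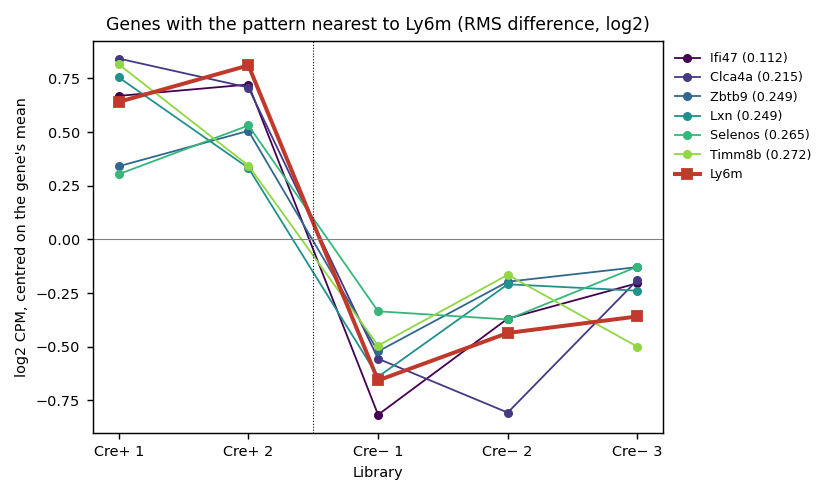
Centred log2 CPM (vertical axis) of Ly6m (red squares, thick line) and the 6 genes nearest to it (circles, with the root mean square difference in brackets) in 5 libraries, Cre-positive left of the dotted line. Ly6m runs at 0.64 and 0.81 in Cre-positive mice 1 and 2 and at -0.66, -0.44 and -0.36 in Cre-negative mice 1, 2 and 3, and Ifi47 has the smallest difference from it over the 5 libraries together.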

How the data were processed

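Total RNA of small intestine was sequenced from 5 mice after ribosomal RNA depletion. The authors deposited 1 table of estimated counts per gene symbol. The submitters' processing notes name Partek and mm10. How reads were aligned and counted, with which annotation and strand setting, is not stated there. Between 19.6% and 21.7% of the deposited estimated counts in a library were not whole (over 0.005 from a whole number), so reads had been divided between genes. Counts were rounded to whole numbers.

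Groups follow the genotype in the labels. Mouse numbers were assigned in record order and do not pair mice, and p-values measure the spread between these mice. edgeR 4.0.16 (R 4.3.3) was used with TMM, a low-count filter (filterByExpr, minimum 10), a robust quasi-likelihood fit of genotype and Benjamini-Hochberg adjustment over 14352 genes. Standard errors divide the log2 fold change by the root of F. With 3 residual degrees of freedom, the biological coefficient of variation came to 33.1%. On simulated data, the fit was required to give a median log2 fold change near the true one. No condition was set there on power or on false calls. DESeq2 1.42.0 and limma 3.58.1 voom were alternatives.

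Members and gene lists were chosen with earlier results of these data known. Named genes were the 6 members, family genes in the table, genes of the chromosome 15 block, nearest genes (prior count 2) and the 2 most abundant of each list used. A gene that this rule names is not reported here. Slc10a2, Hoxb9, Cd79a, Ms4a1, Cdh5, Kdr, Ptprb, Egfl7 and Ccr2 were named after their values were seen. Transcripts and coding sequences came from GENCODE M21, and levels per kilobase use its transcript numbered 201, which may differ from the authors' annotation. RefSeq's promoter table had no entry for Ly6m, Ly6a, Ly6e or Ly6d, and promoters are not analysed here.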

Additional observations from a re-analysis of the deposited data

How the results depend on the processing

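RLE, upper-quartile or total-count scaling, limma-voom, a fit with robust estimation off, no filter, a filter of 5 CPM in 2 libraries and an adjusted p threshold of 0.1 each gave 0 genes called, as did the reported fit. DESeq2 called 19 genes, among them Ly6m (DESeq2 adjusted p = 0.00606), whose adjusted p ran from 0.17 to 1 in the other alternatives. Leaving out each mouse gave 0 to 58 genes called, the 58 without Cre-positive 2, all higher. Ly6m was chosen on this contrast, so the steadiness of its log2 fold change is a description and no support. That value kept its sign in all 14 alternatives and ran from 1.15 to 1.32 without each mouse. It was 0.87 when Ly6m, Ly6a, Ly6e, Ly6c1 and Ly6c2 were added into 1 row. That sum, also 0.87 for Ly6c1, turned the sign of the -1.02 of Ly6c1, since Ly6m and Ly6e hold most of its reads. Without each mouse, the log2 fold change ran from -0.89 to 4.15 for Ly6a, from -0.46 to 0.70 for Ly6e, with -0.04 without Cre-negative 3, and from -1.64 to -0.49 for Ly6c1. In a count added after seeing the data, without Cre-positive 1, 3 LU domain genes, 17 GPI anchor genes and 27 interferon genes had positive values, against 7, 10 and 33 with it; the cause was not tested. Ly6c1 did not pass the 5 CPM filter. No paired analysis was possible because mice were numbered in record order and the numbers link no mice. With 2 mice against 3, an exact permutation test cannot go below p = 0.1, and members with under 20 reads per library were limited by depth.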

Other observations

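The genes nearest to the other members differed in kind. Nearest to Ly6e were Snord17, a small nucleolar RNA gene, at a root mean square difference of 0.0925 in centred log2 CPM, then Cdk17, a kinase gene, at 0.096 and Snora73b, also a small nucleolar RNA gene, at 0.106. Snord17 stood at 30.6 and 13.2 CPM in Cre-positive mice 1 and 2, against 27.1, 20.0 and 9.61 CPM in Cre-negative mice 1, 2 and 3. Nearest to Ly6c1 were Casp12, an inflammatory caspase gene, at 0.119, Hdgfl3 at 0.138 and the microRNA host gene Mir100hg at 0.16. Casp12 stood at 12.4 and 7.15 CPM in Cre-positive mice 1 and 2, against 18.0, 16.5 and 14.7 CPM in Cre-negative mice 1, 2 and 3. These values describe 5 libraries.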
